A study of Bos taurus with 12 samples.

Results

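The genes described here are those of the splicing and RNA-binding protein families in bovine aortic endothelial cells, a culture model of the inner lining of the aorta. They were chosen by gene symbol alone, from 13 families: the serine/arginine-rich factors (SRSF), the SF3A and SF3B subunits, the small nuclear ribonucleoproteins (SNRP), the HNRNP proteins, the DDX and DHX helicases, the PRPF, LSM and RBM proteins, the cleavage and polyadenylation factors CPSF and CSTF, U2AF, and the CLK kinases. The array annotation held 83 such genes among 3977 named genes, in 12 of the 13 families; it listed no CSTF gene. They had 95 probe sets of the 24016 tested, and for the 9 members with several, the brightest on average was used. Another 2 probe sets that list a family gene beside a second gene were not used.

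The cells were at passage 15, came from aorta and had been grown on glass for 5 days in medium with 10% serum. Antibiotics at 1% are recorded for all 12 samples. All 12 coverslip samples then spent 24 h in flow medium with 5% serum and 8% dextran, and 24 h in a flow loop. The 4 groups of 3 arrays differed in wall shear stress (WSS, the drag of the fluid on the cell surface): a positive gradient, in which the stress rises along the flow, a negative gradient, in which it falls, a uniform high WSS of 28.4 Pa and a uniform baseline WSS of 3.5 Pa. Every group thus saw flow, and none was a static culture. The local stress along the gradients is not given in the sources used here. Nothing in the sources says that the 3 arrays of a group came from separate cultures, so the p-values measure only the spread between these samples, which may be technical.

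Pre-messenger RNA is spliced by the spliceosome, which is built from small nuclear ribonucleoproteins: U1 and U2 recognise the ends of the intron, and the tri-snRNP of U4, U6 and U5 joins them before the helicases remodel the complex. Serine/arginine-rich proteins mostly favour the use of an exon and are switched by kinases of the CLK family, while HNRNP proteins coat the transcript and often oppose them. Helicases of the DEAD and DEAH types drive the rearrangements and hand the mature transcript to the export machinery, and LSM proteins form rings on U6 RNA in the nucleus and on decaying transcripts in the cytoplasm.

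Each value is a log2 signal after robust multi-array averaging (RMA), so a difference of 1 is a doubling of the signal. Brightness depends on the probes as well as on the RNA, and no gene's level is set against another's. Array medians lay between 5.65 and 5.72. HNRNPLL and RBM43 had means below the lowest array median, and the other members were above it. A member was called where limma's p, adjusted by the Benjamini-Hochberg method over all 24016 probe sets, was under 0.05. The number of arrays limits the precision of every value. In such bulk RNA, fewer cells of a kind and less RNA per cell cannot be told apart.

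Several features of the arrays bear on what follows. The record numbers of the gradient arrays form one run and those of the uniform-flow arrays another, so an unstated difference between the sets and the effect of a gradient cannot be told apart; within a set, the comparisons are positive against negative gradient and high against baseline WSS. High WSS replicate 3 stood apart from its group: over the 83 members its root mean square difference was 0.166 from positive gradient replicate 3, against 0.404 and 0.389 from high WSS replicates 1 and 2. The array's control probe sets for elongation factor EF1A, read as 3′ minus 5′ probe signal (a measure that moves with RNA length and labelling), averaged −1.77 ± 0.28 in the positive gradient, −1.98 ± 0.17 in the negative gradient, −1.42 ± 0.53 in high WSS and −1.23 ± 0.19 in baseline (log2, SD, n = 3 each), and high WSS replicate 3 was at −2.03. For GAPDH the same difference averaged 0.213 ± 0.154, 0.114 ± 0.066, 0.477 ± 0.338 and 0.628 ± 0.052 in that order of groups (SD, n = 3 each), with high WSS replicate 3 at 0.089. In both controls the 6 gradient arrays and high WSS replicate 3 lay below the other 5 uniform-flow arrays. The same 7 arrays stood apart in every member called in both gradients below. They were on the high side in CLK3, PRPF31, DDX19B, HNRNPL, RBM42, LSM12 and SRSF4, and on the low side in HNRNPLL. These arrays also stood apart in DHX57, HNRNPC, SF3B2 and PTBP1, but not in SNRPB, RBM14, RBM6 or DDX17. Outside the families, the cell markers TIE1 and EGFL7 (on the high side) and THY1 (on the low side) had the same split. Called members were picked by a gap between gradient and baseline arrays, so part of the split follows from that choice. The share of all members or named genes with this split was not counted. In the control for ACTB the 7 arrays did not stand apart. The gradient arrays (0.63 to 1.53) overlapped the uniform-flow arrays (1.01 to 1.69), and high WSS replicate 3 (1.14) lay between its own replicates (1.06 and 1.24). The part of these controls in the results was not tested. Of the endothelial markers 7 of 12 were named on the array, with PECAM1 at a mean of 11.98 and CDH5 at 11.11 over the 12 arrays, and TIE1 was called higher against baseline in both gradients (by 1.24 in the positive and 1.18 in the negative gradient). With the replicate number as a block in the fit, ERG (−0.63) and ROBO4 (−0.46) were also called lower in the positive gradient and EGFL7 (0.85) higher in the negative gradient, and ERG (−0.64) and ROBO4 (−0.58) were lower in high WSS. The mean of these markers ranged over arrays from 10.26 to 10.36 in the positive gradient, 10.39 to 10.53 in the negative gradient, 10.00 to 10.32 in high WSS and 10.09 to 10.15 in baseline. Of markers of other cells, TAGLN and SMTN (smooth muscle), COL1A2 and THY1 (fibroblasts) and CD14 (leukocytes) were named; THY1 was called lower in the positive gradient (−1.05), and without the block no other was called in either gradient against baseline. With the block, THY1 was lower in both gradients (−1.24 in the negative), CD14 was lower (−1.77) and SMTN higher (0.73) in the positive gradient, TAGLN was higher in the negative gradient (0.91), and CD14 was lower in high WSS (−1.53). CD14 ranged from 4.18 to 5.52 in the positive gradient, 4.47 to 7.12 in the negative gradient, 3.98 to 6.09 in high WSS and 5.15 to 7.99 in baseline. The mean of the smooth muscle pair ranged from 7.00 to 7.90, 7.41 to 8.56, 6.71 to 7.54 and 6.89 to 7.41 in that order of groups, and that of the fibroblast pair from 8.95 to 9.22, 8.96 to 9.30, 8.85 to 9.73 and 9.66 to 9.76. The part of these markers in the results was not tested.

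Against baseline WSS, the signals of a splicing kinase, a tri-snRNP protein, an export helicase and several RNA-binding proteins were 1.46-fold to 2.58-fold higher in the positive gradient, and those of 4 members were lower. CLK3, PRPF31, DDX19B, HNRNPL, RBM42, LSM12, SRSF4, SNRPB and RBM14 were higher, and HNRNPLL, DHX57, RBM6 and DDX17 were lower. In all, 13 of 83 members were called (15.7%), against 13.9% of the 3977 named genes and 7.01% of all probe sets, so the share of called members was near that of named genes. By direction, 9 members were higher and 4 lower, where 6.08% of named genes were higher and 7.77% lower. The members' median change was 0.04, against −0.04 for the named genes, and 47 members had a higher and 36 a lower mean.

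The negative gradient gave the same kind of picture with fewer calls. CLK3, PRPF31, SRSF4, DDX19B, HNRNPL, RBM42 and LSM12 were higher and HNRNPLL was lower, which is 8 of 83 members (9.64%) against 3.65% of the named genes (3.14% higher and 0.503% lower) and 1.67% of all probe sets. That gap closed with other fits: with the replicate number as a block 10 members were called (12.0%) against 11.9% of named genes, and without high WSS replicate 3 it was 13 members (15.7%) against 14.6%. The median change was −0.05 for the members and −0.07 for the named genes. Both gradients are set against the same 3 baseline arrays, so calls in one are not independent of calls in the other, and each gradient's own values are given side by side below.

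**Figure D1:**
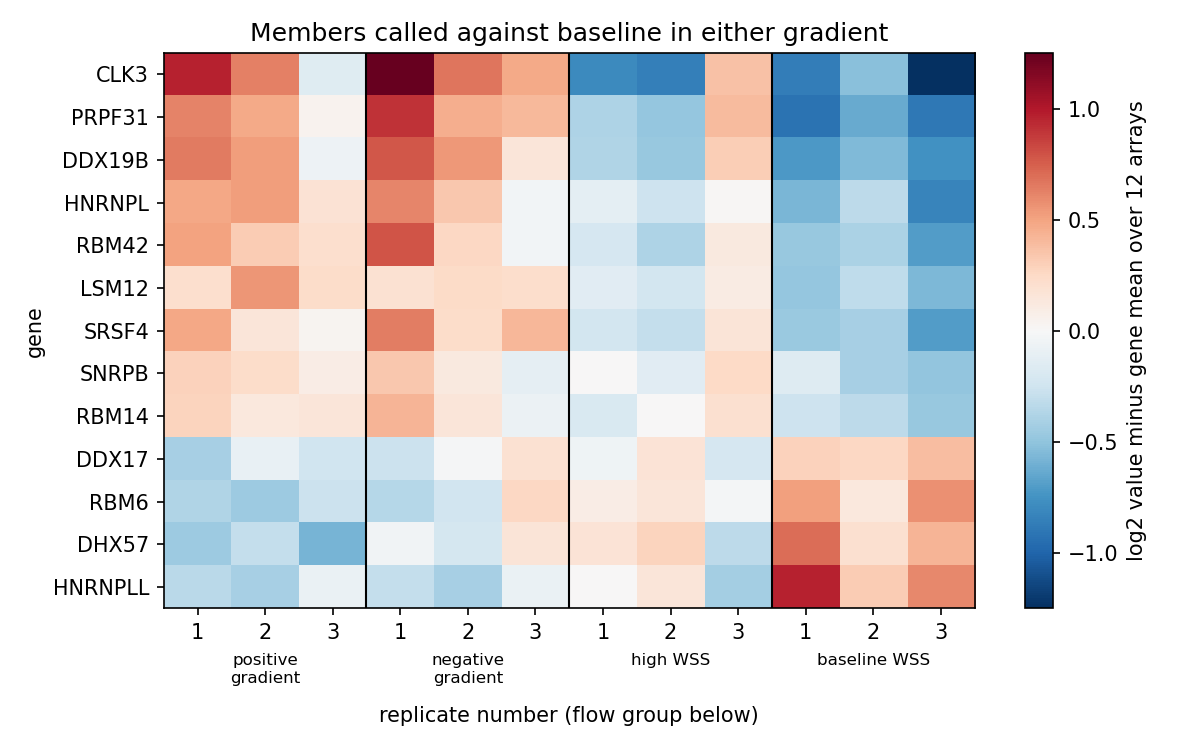
Each row is 1 of the 13 members called against baseline in the positive gradient (8 of them also in the negative gradient), and each column is 1 array, in the 4 flow groups; colour is the log2 value minus the gene's mean over the 12 arrays, red above and blue below. The 9 higher members are blue in all 3 baseline arrays, and high WSS replicate 3 is redder than replicates 1 and 2 for the first 9 genes.

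CLK3 encodes a CDC2-like kinase that phosphorylates serine/arginine-rich splicing factors, and it is the only CLK gene named on the array. Its log2 values were 7.94, 7.60 and 6.82 in the positive gradient, 8.35, 7.64 and 7.45 in the negative gradient, 6.18, 6.12 and 7.34 in high WSS, and 6.11, 6.45 and 5.70 in baseline. All 6 gradient arrays lay above the 3 baseline arrays, and high WSS replicate 3 lay among the gradient arrays. CLK3 was 2.58-fold higher in the positive gradient (1.37 ± 0.36 in log2, SE, limma adjusted p = 0.0419) and 3.31-fold higher in the negative gradient (1.73 ± 0.36, limma adjusted p = 0.0389), with all 3 same-numbered pairs higher in each. It had the widest range of group means among the 83 members, 1.73.

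PRPF31 holds the U4/U6 particle in the tri-snRNP, and its mutations cause retinal degeneration in humans. It had 8.19, 8.04 and 7.61 in the positive gradient, 8.47, 8.02 and 7.97 in the negative gradient, 7.18, 7.08 and 7.96 in high WSS, and 6.64, 6.94 and 6.67 in baseline. The gradient and baseline arrays did not overlap, and the first 2 high WSS arrays lay between them. It was 2.29-fold higher in the positive gradient (1.20 ± 0.23, SE, limma adjusted p = 0.020) and 2.64-fold higher in the negative gradient (1.40 ± 0.23, limma adjusted p = 0.0321). The other PRPF members went without a call: PRPF18, a step-2 splicing factor, differed by −0.45 and −0.13 in the positive and the negative gradient, and PRPF38B by −0.33 and −0.48.

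DDX19B is a DEAD-box ATPase that works at the nuclear pore during messenger RNA export. It had 8.38, 8.26 and 7.67 in the positive gradient, 8.51, 8.28 and 7.89 in the negative gradient, 7.36, 7.26 and 8.04 in high WSS, and 7.02, 7.19 and 6.98 in baseline. Again the gradient arrays lay above all baseline arrays, and high WSS replicate 3 was the only uniform-flow array above 7.67, the lowest gradient value. The rise was 2.07-fold in the positive gradient (1.05 ± 0.23, SE, limma adjusted p = 0.0283) and 2.24-fold in the negative gradient (1.17 ± 0.23, limma adjusted p = 0.0388). Its near-identical paralog DDX19A went the other way, with 10.12, 10.19 and 10.17 in the positive gradient, 10.04, 9.90 and 9.92 in the negative gradient, 10.30, 10.43 and 10.30 in high WSS, and 10.24, 10.24 and 10.20 in baseline. All 6 gradient arrays of DDX19A lay below all 6 uniform-flow arrays, though no comparison of it was called with all 12 arrays and no block; without high WSS replicate 3 it was called lower in the negative gradient than in high WSS (−0.41, limma adjusted p = 0.0484). The probe sets of these paralogs come from one design cluster and may share transcripts, so which gene each one reads is uncertain.

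HNRNPL binds CA-rich stretches of RNA and changes the choice of exons. It had 8.96, 9.01 and 8.66 in the positive gradient, 9.09, 8.82 and 8.44 in the negative gradient, 8.35, 8.22 and 8.49 in high WSS, and 7.91, 8.16 and 7.65 in baseline. The change was 0.97 ± 0.18 in the positive gradient (SE, limma adjusted p = 0.0187) and 0.88 ± 0.18 in the negative gradient (limma adjusted p = 0.0389), a rise of 1.96-fold and 1.84-fold. A second, dimmer probe set of HNRNPL differed by 0.91 and 0.92, with limma adjusted p of 0.070 and 0.096.

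Its relative HNRNPLL, known in human and mouse lymphocytes for the switch of CD45 exons, moved in the opposite direction. It had 5.08, 5.00 and 5.33 in the positive gradient, 5.12, 5.00 and 5.34 in the negative gradient, 5.42, 5.57 and 4.99 in high WSS, and 6.38, 5.74 and 6.02 in baseline. The gradient arrays and all high WSS arrays lay below every baseline array. HNRNPLL was at 0.533 of baseline in the positive gradient (−0.91 ± 0.19, SE, limma adjusted p = 0.0239) and 0.538 in the negative gradient (−0.89 ± 0.19, limma adjusted p = 0.0411). Its signal is in the dim range of the arrays, and it is not tested when dim probe sets are left out.

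RBM42, an RNA-recognition-motif protein that binds the HNRNP protein K, had 8.44, 8.26 and 8.15 in the positive gradient, 8.73, 8.20 and 7.91 in the negative gradient, 7.73, 7.55 and 8.06 in high WSS, and 7.46, 7.55 and 7.24 in baseline. Its gradient arrays lay above all baseline arrays, and high WSS replicate 3 exceeded negative gradient replicate 3. RBM42 was 1.82-fold higher in each gradient (0.86 ± 0.20 in both, SE, limma adjusted p = 0.0302 in the positive and 0.0494 in the negative gradient). LSM12, an LSm-domain protein outside the U6 ring, had 8.24, 8.59 and 8.26 in the positive gradient, 8.22, 8.27 and 8.25 in the negative gradient, 7.89, 7.80 and 8.13 in high WSS, and 7.55, 7.71 and 7.47 in baseline. Every gradient array of LSM12 lay above every uniform-flow array, high WSS replicate 3 included. LSM12 rose by 0.79 ± 0.14 in the positive gradient (SE, limma adjusted p = 0.0163) and by 0.67 ± 0.14 in the negative gradient (limma adjusted p = 0.0389).

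SRSF4, a serine/arginine-rich factor of the class that CLK kinases phosphorylate, had 6.57, 6.24 and 6.12 in the positive gradient, 6.73, 6.32 and 6.50 in the negative gradient, 5.86, 5.79 and 6.25 in high WSS, and 5.62, 5.68 and 5.39 in baseline. The gradient values all exceeded the baseline values, and high WSS replicate 3 overlapped the gradients. It was 1.68-fold higher in the positive gradient (0.75 ± 0.17, SE, limma adjusted p = 0.0286) and 1.94-fold higher in the negative gradient (0.96 ± 0.17, limma adjusted p = 0.0321). The other 5 SRSF members were not called. SRSF3 differed by 0.37 and 0.13 and SRSF7, an export adaptor as well as a splicing factor, by 0.32 and 0.08, in the positive and the negative gradient, while SRSF6 differed by −0.64 and −0.36, SRSF11 by −0.12 and −0.21, and SRSF1 by 0.07 and 0.38.

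**Figure D2:**
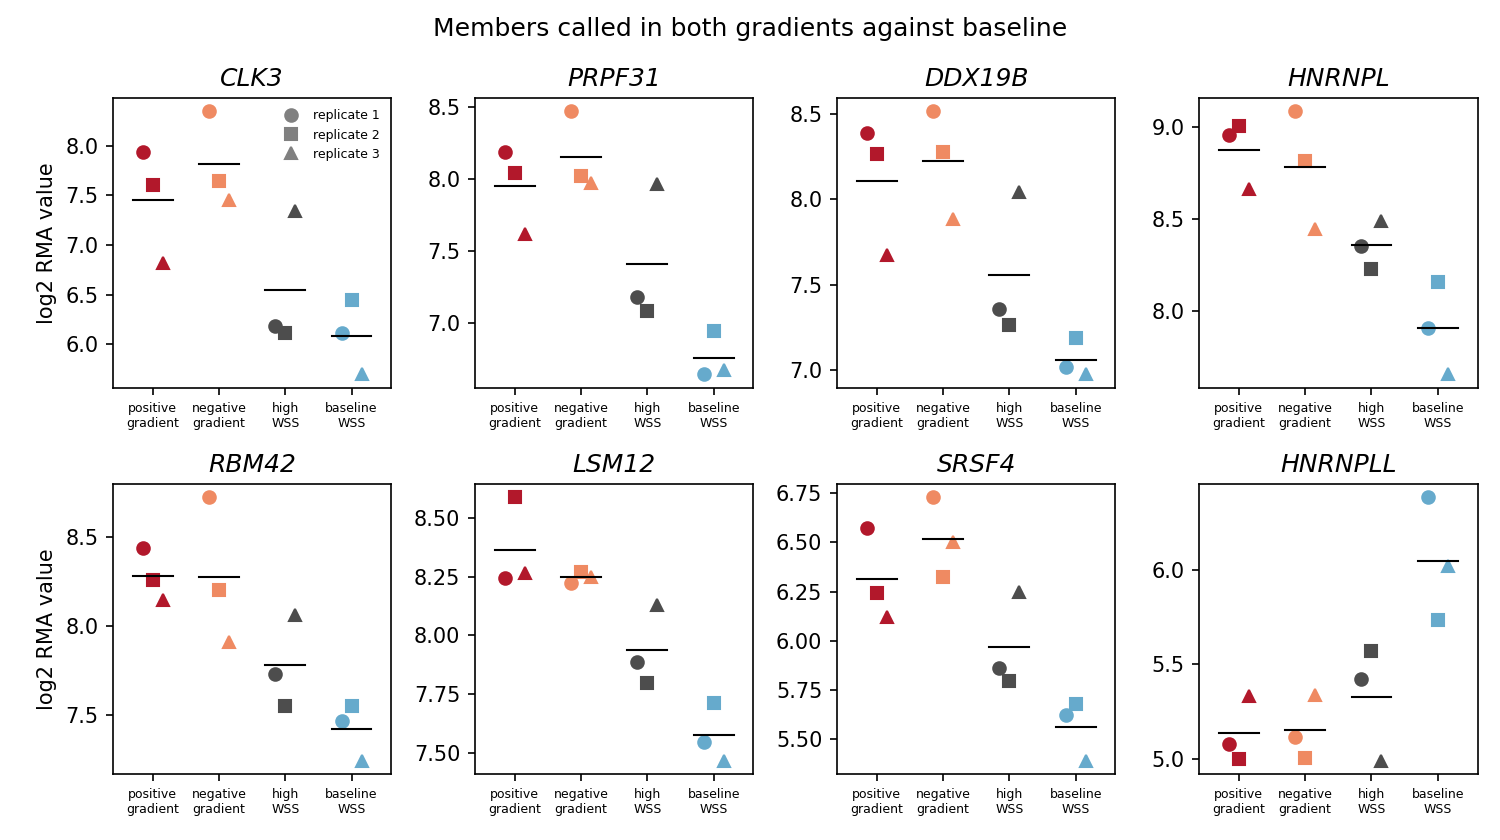
Log2 RMA values of the 8 members called against baseline in each gradient, with 1 point per array, its shape giving the replicate number, and a line at the mean of each group of 3; the vertical axes differ and do not start at 0. In 7 panels the gradient arrays lie above the baseline arrays, with high WSS replicate 3 (triangle) above replicates 1 and 2, and in the HNRNPLL panel the order is turned.

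The remaining calls were made in the positive gradient alone, and the direct comparison of the gradients called none of them, so no difference between the gradients is shown for these genes. SNRPB, which encodes the SmB protein of the ring on spliceosomal RNAs, had 11.55, 11.49 and 11.36 in the positive gradient, 11.61, 11.39 and 11.16 in the negative gradient, 11.27, 11.13 and 11.51 in high WSS, and 11.10, 10.85 and 10.77 in baseline. All 6 gradient arrays lay above the 3 baseline arrays. SNRPB differed from baseline by 0.56 ± 0.15 in the positive gradient (SE, limma adjusted p = 0.0463) and by 0.48 ± 0.15 in the negative gradient (limma adjusted p = 0.0993). RBM14, a paraspeckle protein and transcriptional coactivator, had 8.44, 8.29 and 8.30 in the positive gradient, 8.58, 8.31 and 8.08 in the negative gradient, 7.96, 8.16 and 8.35 in high WSS, and 7.90, 7.83 and 7.68 in baseline, again with no overlap of gradient and baseline arrays. It differed by 0.54 ± 0.15 in the positive gradient (limma adjusted p = 0.047) and 0.52 ± 0.15 in the negative gradient (limma adjusted p = 0.0789).

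DHX57, a DEAH-box protein whose role is little described, had 6.61, 6.76 and 6.48 in the positive gradient, 7.02, 6.84 and 7.22 in the negative gradient, 7.23, 7.34 and 6.74 in high WSS, and 7.77, 7.26 and 7.49 in baseline. The positive gradient arrays lay below all negative gradient and baseline arrays, and high WSS replicate 3 lay among them. DHX57 fell by 0.89 on the log2 scale in the positive gradient (SE 0.18, limma adjusted p = 0.022), against a change of −0.48 in the negative gradient (limma adjusted p = 0.148). RBM6, a splicing regulator related to RBM5, had 7.84, 7.77 and 7.95 in the positive gradient, 7.87, 7.99 and 8.48 in the negative gradient, 8.32, 8.38 and 8.20 in high WSS, and 8.74, 8.36 and 8.79 in baseline, and fell by 0.77 in the positive gradient (SE 0.17, limma adjusted p = 0.0255). The negative gradient overlapped baseline through its replicate 3 (8.48). DDX17, the partner of DDX5 in splicing and transcription, had 11.05, 11.38 and 11.22 in the positive gradient, 11.20, 11.46 and 11.66 in the negative gradient, 11.42, 11.64 and 11.26 in high WSS, and 11.76, 11.72 and 11.86 in baseline. Every gradient array of DDX17 lay below the baseline arrays. It fell by 0.56 in the positive gradient (SE 0.15, limma adjusted p = 0.0437), and DDX5 itself differed by −0.11 and −0.04 in the positive and the negative gradient, without a call.

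Taking the replicate number as a block raised the count for the positive gradient to 24 members, 16 higher and 8 lower (28.9%, against 34.3% of named genes, of which 16.1% higher and 18.2% lower), and all 13 members called without the block were among them. The 11 added were LSM2 (0.65) and LSM3 (0.77) of the U6 ring, SNRPA of the U1 particle (0.58), the SF3B subunits SF3B2 (0.38) and SF3B4 (0.43), and the export helicases DDX39A (0.49) and DDX39B (0.71), which were higher, and RBM43 (−0.91), RBM5 (−0.49), SRSF6 (−0.64) and DHX9 (−0.51), which were lower. Without high WSS replicate 3, which enters only through the common spread, 21 members were called, 11 higher and 10 lower (25.3%, against 24.6% of named genes). The counts rested on most single arrays of the groups compared: leaving out any 1 positive gradient array or baseline replicate 3 left 0 members called for the positive gradient, and leaving out baseline replicate 1 left 2, while 11 were left without baseline replicate 2. For the negative gradient, leaving out any 1 negative gradient array, baseline replicate 1 or baseline replicate 3 left 0. Leaving out positive gradient replicate 1, 2 or 3 left 2, 3 and 4, and 7 were left without baseline replicate 2. The share of named genes called without these arrays was not counted, so whether the loss is particular to the members cannot be told.

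Counting arrays without a model, 14 members (16.9%) had all 6 gradient arrays above the 3 baseline arrays, against 13.0% of named genes, and 11 (13.3%) had them all below, against 14.4%. Besides called members, the first set held DDX39B, HNRNPC, RBM25, SF3B2 and SF3B4, and the second held DDX1, DDX19A, DDX20, DDX27, DDX50, LSM14A, RBM34 and SF3B1. The dimmer probe set of DDX27 differed from baseline by 0.12 in the positive and −0.27 in the negative gradient. That of LSM14A differed by −0.16 and 0.35, so in each gene 1 gradient went the other way. Against all 6 uniform-flow arrays, only LSM12, HNRNPC and SF3B2 were higher in all 6 gradient arrays (3.61%, against 0.93% of named genes) and only DDX19A was lower (1.20%, against 0.327%). HNRNPC, which binds uridine tracts in nascent transcripts, had 10.51, 10.51 and 10.50 in the positive gradient, 10.74, 10.47 and 10.57 in the negative gradient, 10.28, 10.26 and 10.47 in high WSS, and 10.18, 10.26 and 10.20 in baseline. Its lowest gradient array and high WSS replicate 3 both round to 10.47, so that separation is very slight. SF3B2, a subunit that contacts the branch site region in the U2 particle, had 9.74, 9.57 and 9.59 in the positive gradient, 9.82, 9.62 and 9.66 in the negative gradient, 9.41, 9.35 and 9.50 in high WSS, and 9.28, 9.21 and 9.26 in baseline. Their differences from baseline were 0.29 and 0.38 for HNRNPC and 0.38 and 0.45 for SF3B2, in the positive and the negative gradient, with limma adjusted p from 0.0567 to 0.124.

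By family, the calls were scattered, with 1 to 3 called members in a family in the positive gradient. SF3A and SF3B subunits, CPSF proteins and U2AF1 (which reads the AG at the end of the intron) had no called member in either gradient by limma without the block; the block added SF3B2 in both gradients and SF3B4 in the positive one. SF3B1, the branch-site protein, differed by −0.47 in each gradient (limma adjusted p = 0.0917 in the positive and 0.126 in the negative gradient). Its dimmer probe sets gave 0.63 and 0.04 in the positive gradient and −0.19 and −0.59 in the negative gradient, so they disagree. The 13 DDX members had a median difference of −0.11 and −0.18 in the positive and the negative gradient, with 9 and 10 members lower in value. Of the 3977 named genes, 2105 and 2295 were lower in value in these comparisons. For the 5 DHX members the medians were −0.51 and −0.32, and all 5 were lower in value in the negative gradient, among them DHX15, the helicase that takes the spliceosome apart (−0.12), and DHX9 (−0.32). For DHX29 this held for the probe set used (−0.28) but not for its dimmer ones (0.02 and 0.24). The 11 HNRNP members had medians of 0.02 and 0.10, and between HNRNPL and HNRNPLL the other 9 stayed between −0.14 and 0.38 in the gradients.

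**Figure D3:**
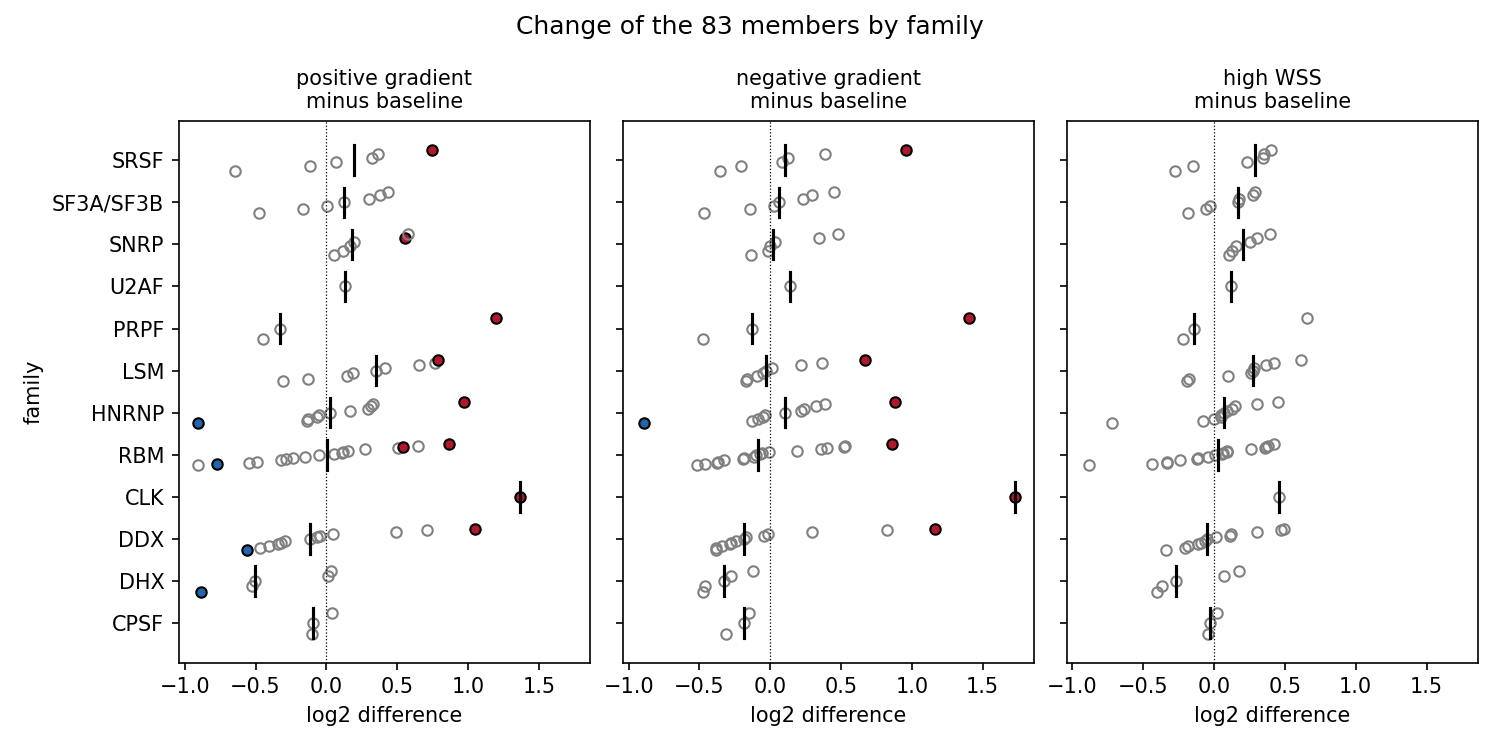
Log2 difference from baseline WSS of each of the 83 members, by family, in the positive gradient, the negative gradient and high WSS; filled points are called (red higher, blue lower), open points are not, and the bar is the family median. The 13 filled points in the first panel and 8 in the second are spread over the families, and the panel of high WSS has none.

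HNRNPA0, which binds AU-rich elements, had 3 probe sets that gave different values. The brightest probe set, used here, differed from baseline by 0.17 in the positive and 0.22 in the negative gradient. A dimmer one differed by 1.12 (limma adjusted p = 0.046) and 1.52 (limma adjusted p = 0.039), and another by 0.37 and 0.07. No member had probe sets whose changes were of opposite sign and both past 0.5 in log2.

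High WSS against baseline called 0 members by limma's adjusted p, against 1.18% of named genes (47 of 3977), with a uniform stress of 28.4 Pa in high WSS and 3.5 Pa in baseline. At an unadjusted p under 0.05 there were 14 members (16.9%), against 26.8% of named genes, and the smallest adjusted p was 0.110. The 3 members with the smallest p were HNRNPLL (−0.72), RBM43 (−0.88) and PRPF31 (0.66). High WSS replicate 3 was the lowest array of its group for HNRNPLL and the highest for PRPF31, and both differences are smaller without it. RBM43, an RNA-recognition-motif protein, had 4.94, 5.44 and 4.96 in high WSS and 5.57, 6.80 and 5.62 in baseline; the groups did not overlap, and baseline replicate 2 was far above the other 2 baseline arrays. With the replicate block HNRNPLL (limma adjusted p = 0.0482) and RBM43 (limma adjusted p = 0.0247) were called lower, which is 2.41% of members against 14.6% of named genes. The median member change was 0.09, against −0.01 for named genes, and without high WSS replicate 3 it was 0.11, again with 0 members called by limma, against 0.126% of named genes, and 4 at an unadjusted p under 0.05 (4.82%, against 19.1%).

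Positive against negative gradient called 0 of the 83 members and 0 of the 24016 probe sets by limma (0% of named genes). At an unadjusted p under 0.05 there were 3 members (3.61%), against 11.5% of named genes, and with the replicate block 0 members were called, against 0.0754% of named genes, and 6 passed an unadjusted p under 0.05 (7.23%, against 23.6%). The 3 were LSM5 (0.51 ± 0.19, SE), LSM3 (0.55 ± 0.25) and DHX57 (−0.41 ± 0.18), with limma adjusted p of 0.886, 0.945 and 0.945.

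LSM3 and LSM5 are subunits common to the nuclear LSM2 to LSM8 ring, which caps the end of U6 RNA, and the cytoplasmic LSM1 to LSM7 ring, which promotes decapping. LSM5 had 9.82, 9.50 and 9.67 in the positive gradient, 9.62, 8.98 and 8.87 in the negative gradient, 9.51, 9.34 and 9.75 in high WSS, and 9.29, 9.08 and 9.39 in baseline. LSM3 had 10.24, 9.76 and 9.90 in the positive gradient, 10.11, 9.19 and 8.94 in the negative gradient, 9.99, 9.55 and 9.89 in high WSS, and 9.31, 9.00 and 9.28 in baseline. In both genes negative gradient replicate 1 lay with the positive gradient, and replicates 2 and 3 lay with or below baseline.

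The 6 measured proteins of the nuclear ring (LSM2, LSM3, LSM4, LSM5, LSM7 and LSM8) were also taken as a mean. That mean does not show whether each member followed LSM3 and LSM5, which are part of it. All but LSM8 also belong to the cytoplasmic ring, so the mean cannot tell the nuclear from the cytoplasmic ring. Their mean was 9.90, 9.57 and 9.71 in the positive gradient, 9.81, 9.27 and 9.05 in the negative gradient, 9.69, 9.50 and 9.70 in high WSS, and 9.36, 9.19 and 9.36 in baseline. The same-numbered differences between positive and negative gradient were 0.086, 0.300 and 0.663, and those between high WSS and baseline were 0.324, 0.314 and 0.337. The difference between the gradients thus spread over the replicate numbers more than that between the uniform flows. LSM1, which marks the cytoplasmic ring, differed between positive and negative gradient by 0.04 and from baseline by −0.13 in the positive and −0.17 in the negative gradient.

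The 6 SNRP members (SNRPA and SNRPC of the U1 particle, SNRPA1 of U2, and the Sm proteins SNRPB, SNRPD2 and SNRPD3) had a mean of 10.75, 10.63 and 10.59 in the positive gradient, 10.76, 10.46 and 10.26 in the negative gradient, 10.58, 10.56 and 10.65 in high WSS, and 10.46, 10.32 and 10.36 in baseline. All 6 had a higher group mean in the positive than in the negative gradient, by 0.08 to 0.23, but the pair of replicate 1 differed by −0.01. These set means describe the chosen members and carry no test. Proliferation genes were likewise lower in mean in the negative than in the positive gradient and lowest in baseline: 26 of 31 listed were measured, and their mean ranged from 8.64 to 9.49 over arrays in the positive gradient, 7.92 to 9.28 in the negative gradient, 8.76 to 9.43 in high WSS and 7.55 to 8.67 in baseline. The part of proliferation in the ring values was not tested.

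**Figure D4:**
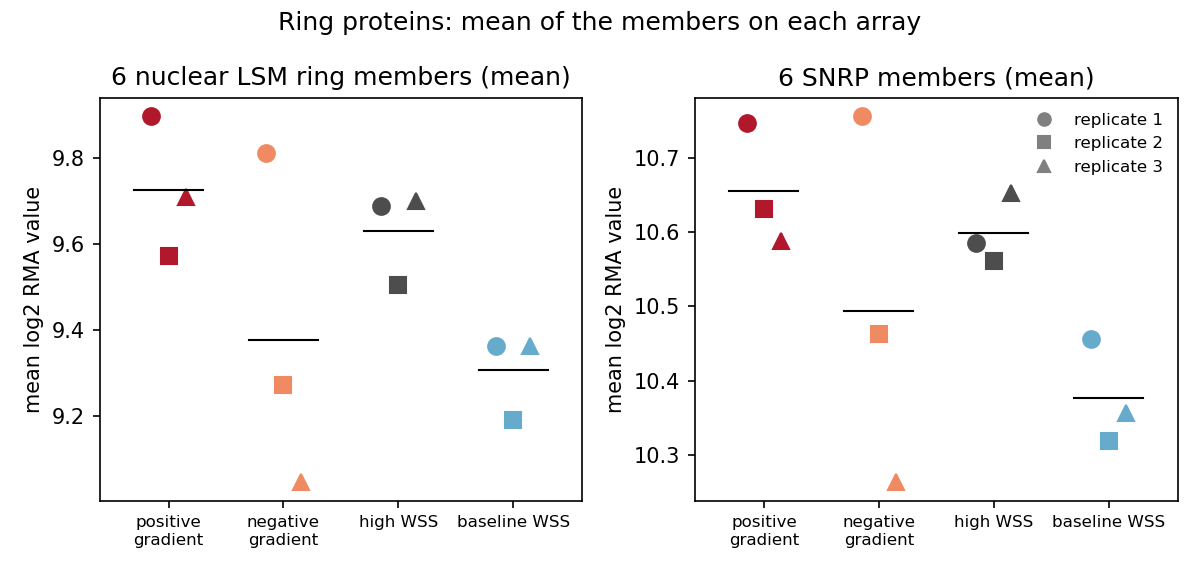
Mean log2 RMA value on each array of the 6 measured proteins of the nuclear LSM ring (left) and of the 6 SNRP members (right), with the point's shape giving the replicate number and a line at the mean of each group of 3; the vertical axes do not start at 0. The negative gradient spans 9.05 to 9.81 on the left, the widest spread of the 4 groups, and the baseline arrays stay between 9.19 and 9.36.

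Against high WSS, the gradients called 0 members each by limma: 0% of named genes were called in the positive gradient and 0.302% (12 of 3977) in the negative gradient. At an unadjusted p under 0.05 there were 8 members in the positive gradient (9.64%, against 6.74% of named genes), led by LSM12 (0.42), HNRNPL (0.52) and DHX57 (−0.48), and 16 in the negative gradient (19.3%, against 25.5%), led by DDX19A (−0.39), CLK3 (1.27) and SRSF4 (0.55). Without high WSS replicate 3 the count in the negative gradient was 6 (7.23%, against 12.6% of named genes): CLK3 (1.66), PRPF31 (1.02), DDX19B (0.91) and SRSF4 (0.69) were higher and DDX19A (−0.41) and DDX27 (−0.48) lower, with limma adjusted p from 0.015 to 0.0484. With the block and all 12 arrays it was 0, against 10.8% of named genes. At an unadjusted p under 0.05 that fit had 22 members (26.5%, against 37.6% of named genes). In the positive gradient the count without high WSS replicate 3 stayed at 0 members, against 2.49% of named genes. With the replicate block as well, a fit chosen after that array was seen to stand apart, 12 members (14.5%, against 11.4% of named genes) and 17 (20.5%, against 29.5%) were called in the positive and the negative gradient.

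Over all 4 groups, limma's F-test called PRPF31, LSM12, SRSF4 and HNRNPL, with adjusted p from 0.0353 to 0.0426. That is 4.82% of members against 4.17% of named genes. Next came DDX19B, HNRNPLL, CLK3 and RBM42, with adjusted p from 0.0518 to 0.0646. With the replicate block 14 members were called (16.9%, against 27.8%), and without high WSS replicate 3 it was 13 (15.7%, against 20.9%). Leaving out any other array left 0 or 1, and the share of named genes was not counted there.

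The members also differed by replicate number. The median range of the 4 group means was 0.372, and that of the 3 replicate means was 0.245, and in 27 of 83 members (32.5%, against 32.2% of named genes) the second was wider. Of the 83 members 65 (78.3%) had their highest replicate mean in replicate 1, against 2174 of the 3977 named genes (54.7%); members share arrays, so this is a description with no test. RBM3, a cold-inducible RNA-binding protein, was the extreme: it had 8.06, 7.26 and 7.13 in the positive gradient, 8.21, 7.31 and 7.60 in the negative gradient, 8.11, 7.62 and 7.05 in high WSS, and 8.71, 7.43 and 7.96 in baseline. Replicate 1 was the highest array of RBM3 in every group, and the range of its replicate means was 0.87, against 0.55 for its group means. DDX39A followed, with 0.74 against 0.49. What the replicate numbers share is not given in the sources used here.

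**Figure D5:**
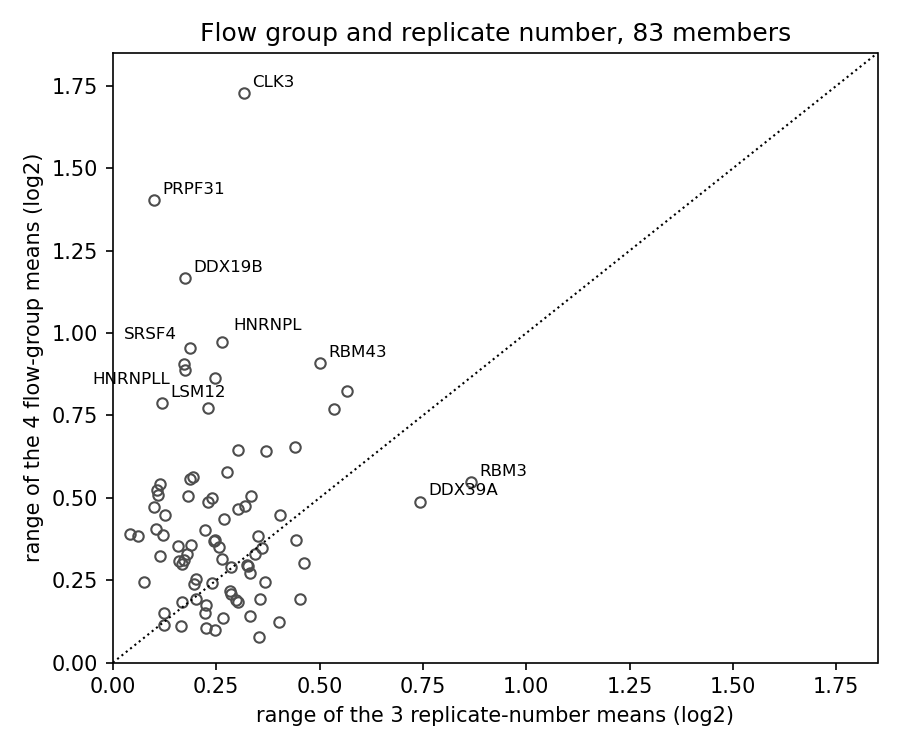
Each point is 1 of the 83 members; the horizontal axis is the range of the means of the 3 replicate numbers and the vertical axis the range of the means of the 4 flow groups, both in log2, with the dotted line where they are equal. CLK3, PRPF31 and DDX19B lie far above the line, and RBM3 and DDX39A lie below it.

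Other genes of RNA processing, outside these families, were listed by function. Of 21 measured splicing regulators out of 51 listed, 3 were called higher in the positive gradient and 5 in the negative gradient, where 6.08% and 3.14% of named genes were higher, and no other was called without the block. With the block, 7 were higher and 1 lower in the positive gradient (named genes 16.1% and 18.2%), and 5 higher and 1 lower in the negative gradient (named genes 8.32% and 3.55%). PTBP1, which binds pyrimidine tracts and represses exons, had 7.56, 7.84 and 7.23 in the positive gradient, 7.77, 7.74 and 7.67 in the negative gradient, 6.84, 6.54 and 7.57 in high WSS, and 6.31, 6.43 and 5.53 in baseline. It was 2.74-fold higher in the positive gradient (1.45, limma adjusted p = 0.019) and 3.11-fold higher in the negative gradient (1.64, limma adjusted p = 0.032). SUGP1, a spliceosomal G-patch protein, rose by 1.19 in the negative gradient (limma adjusted p = 0.035), against a difference of 0.75 in the positive gradient (limma adjusted p = 0.059). RBFOX2, which reads GCAUG elements, rose by 0.93 in the positive gradient and 0.88 in the negative gradient (limma adjusted p = 0.016 and 0.032).

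For the lists below, 6.08% of named genes were called higher and 7.77% lower in the positive gradient without the block. In the negative gradient it was 3.14% and 0.503%. Of 20 measured spliceosome components out of 50, SART1 of the tri-snRNP rose by 0.83 in the positive and 0.94 in the negative gradient (limma adjusted p = 0.035 and 0.042), and SART3, which recycles U6, rose by 0.63 in the positive gradient (limma adjusted p = 0.045). Of 7 measured genes of snRNP assembly out of 18, COIL, the scaffold of Cajal bodies, fell by 0.81 in the positive gradient and GEMIN4, of the SMN complex, by 0.52 (limma adjusted p = 0.028 and 0.039). Of 9 serine/arginine partners out of 15, RNPS1 rose by 0.72 in the positive gradient and SRRM2 fell by 0.78 in the negative gradient (limma adjusted p = 0.047 and 0.042). Of 10 genes of the exon junction, export and surveillance out of 27, SMG9, of nonsense-mediated decay, rose by 1.11 in the positive gradient and CHTOP, an export factor, by 0.59 in the negative gradient (limma adjusted p = 0.025 and 0.045). With the block, the spliceosome list had 5 genes higher in the positive and 2 in the negative gradient, and the exon junction list 1 and 2. The snRNP list had 1 higher and 2 lower in the positive gradient, and 1 higher in the negative gradient. The serine/arginine list had 1 higher in the positive gradient, and 1 higher and 1 lower in the negative gradient. Of named genes, the block called 16.1% higher and 18.2% lower in the positive gradient, and 8.32% and 3.55% in the negative gradient. The 9 measured 3′ end genes out of 14 had median differences of −0.06 in the positive and −0.10 in the negative gradient. None was called without the block, and 1, CLP1 (0.79), was higher in the negative gradient with it (against 8.32% of named genes). Of the 26 proliferation genes, CCND1 (2.11) and CKS2 (1.08) were called higher in the positive gradient, the list's median was 0.83 in the positive gradient, 0.22 in the negative gradient and 0.94 in high WSS, and with the replicate block 24 were called higher in the positive gradient (against 16.1% of named genes), 2 in the negative gradient (against 8.32%) and 23 in high WSS (against 6.79%). Negative gradient against high WSS, the block called 11 of the 26 lower, against 5.0% of named genes.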

How the data were processed

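The authors deposited log2 values from 12 Affymetrix bovine arrays, which RMA (a method that corrects background, equalises the arrays and summarises each probe set) had made; RMA and limma are named per the submitters' processing notes, with versions not given in the sources used here. Of 24128 probe sets, 112 controls were left out of the tests. Symbols came from the platform annotation, which lists 4770 probe sets, 27 with several symbols. These belong to a deposited subset of 7194 probe sets that is brighter than the rest (median mean 8.18 against 4.59) and more variable (median SD 0.296 against 0.212); named genes are therefore the closer background. Of 4726 tested probe sets with 1 symbol, 4715 matched the RefSeq gene table (ARS-UCD2.0) by Entrez number, and 0 symbols changed; no coordinates are given.

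A mean per group was fitted to all 12 arrays with limma 3.58.1 in R 4.3.3 (8 residual and 4.95 prior degrees of freedom; code tested on simulated data), and 6 contrasts and an F-test were taken. The members and gene lists were chosen with earlier results of these data known. Named were, per comparison, up to 8 called members at each end whose groups did not overlap, or the 3 with the smallest p where none was called; the 8 smallest F-test p; in each family the highest, lowest and widest-ranging member; and up to 2 called genes of each other list and comparison. Others in the text (among them DDX19A's neighbours in the array counts, the block's added calls and the rings) were chosen after their values were seen.

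Same-numbered arrays of different groups deviated together from their group means: 17 of 18 correlations were over 0.1 (median 0.387, range −0.079 to 0.616), against a median of −0.216 for different numbers. The exception was replicate 3 of the negative gradient and high WSS. In 5 of 6 comparisons every same-numbered correlation was thus over 0.1, though replicate 3 of baseline and high WSS only reached 0.149. For different numbers, 1 correlation was also over 0.1 (0.151). Deviations cancel within each group, so the negative median for different numbers carries no separate information on pairing. Alternatives were the replicate block, fits on the groups compared alone, eBayes with trend and robust, probe sets above the median brightness, array medians subtracted, the probe set with the largest SD, and each array left out.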

Additional observations from a re-analysis of the deposited data

How the results depend on the processing

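With limma, subtracting array medians, probe sets above the median brightness, eBayes with trend and robust, and the most variable probe set per gene kept each of the 6 counts of called members within 1.5 times of its value; the F-test count was 4 and became 7 with trend and robust. Members called in the positive gradient against baseline numbered 13, and 20 when only those groups were fitted. They numbered 24 with the replicate block (28.9%, against 34.3% of named genes). With the block and no high WSS replicate 3 it was 37 (44.6%, against 46.8%). For the negative gradient the 8 became 22 with that last setting (26.5%, against 29.4%), and 6 with only those groups. With the block, high WSS against baseline became 2 (2.41%, against 14.6%). With the block and no high WSS replicate 3, positive gradient against high WSS became 12 (14.5%, against 11.4%). Negative gradient against high WSS became 17 (20.5%, against 29.5%). The F-test count became 14 with the block (16.9%, against 27.8%). It became 34 with the block and no high WSS replicate 3 (41.0%, against 50.1%). No share of named genes is given for the fits of only the compared groups or with trend and robust. The cause was not tested for these changes, beyond the fewer arrays or added terms of each fit.

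Leaving out each array in turn gave 0 to 0 for positive against negative gradient, 0 to 21 for positive gradient against baseline, 0 to 13 for negative gradient against baseline, 0 to 0 for high WSS against baseline, 0 to 0 for positive gradient against high WSS, 0 to 6 for negative gradient against high WSS and 0 to 13 for the F-test. Among these fits, shares of named genes are given above only for that without high WSS replicate 3. No value of a named member changed sign under any alternative where it had been called. Of the called members' values, 122 of 240 fits without an array and 7 of 138 other fits lost the call.

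Limits are these. Groups of 3 arrays give few degrees of freedom, and the calls against baseline rest on most single arrays of the groups compared. HNRNPLL and RBM43 were dim, and they are the 2 members not tested among probe sets above the median brightness. The replicate block changed no call of a named member in the gradients against baseline from called to uncalled.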
